A study of Homo sapiens with 6 samples.

Results

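The response of U373MG cells to ET-770-DR was set beside the response to its parent ET-770, gene by gene, as a difference of changes. For each gene, the change with ET-770 against its own DMSO array was subtracted from the change with ET-770-DR against its own DMSO array, on the log2 scale. A positive difference therefore means a higher change with ET-770-DR, and a negative one a lower change. Genes were kept when their mean log2 signal over the 4 arrays was 8 or more, which left 8168 of 18417 genes (44.4%). Differences of 1 or more in size, which is 2-fold, were counted.

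ET-770, the parent, is ecteinascidin-770, a marine alkaloid of the tetrahydroisoquinoline class, and ET-770-DR, the derivative, carries a pyridinecarbonyl group on a nitrogen atom that bears a hydrogen in the parent. Both keep the cyano group. Alkaloids of the ecteinascidin family, to which trabectedin belongs, bind in the minor groove of DNA and form a covalent bond with guanine, and transcribed genes and their repair are known to be affected by this adduct. U373MG is an established human glioblastoma line, maintained here in serum-containing medium. Cells of all groups were harvested after 24 h. ET-770 was given at 4.83 nM and ET-770-DR at 1.70 nM, and each vehicle array came from cells given DMSO at the concentration that matched its compound. A separate experiment, with renieramycin M (RM) at 3.10 nM and a DMSO array of its own, gave values side by side. These doses are the IC50 of each compound, so they are unequal.

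Each arm was a single Human Gene 1.0 ST array, and the compounds were run in separate experiments. Compound, dose and experiment cannot be told apart, and no difference below has a replicate check. The values describe 4 arrays, and 1 pair of compounds was examined. The arrays of the ET-770 experiment were brighter, with medians of 7.28 (DMSO) and 7.30 (ET-770) over all probes, against 6.68 (DMSO) and 6.65 (ET-770-DR). Over the 8168 genes this amounted to a median of -0.71 between the vehicle arrays and -0.66 between the compound arrays, which nearly cancelled in the difference of changes. Of 15 astrocytic glioma markers 10 reached the minimum, with vimentin (VIM) and CD44 the brightest at a mean of 13.1 each, whereas GFAP, CHI3L1, AQP4, SLC1A2 and OLIG2 lay below it. Of 23 markers of neurons, leukocytes, endothelium, oligodendrocytes and epithelium, CD68 and KRT18 alone reached it.

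The responses to both compounds were close for most genes. The difference of changes had a median of 0.05 and a standard deviation of 0.27 over genes, and it was under 0.5 in size for 93.2% of them. The changes with the parent and the derivative correlated across genes at a Pearson coefficient of 0.92 and a Spearman coefficient of 0.89. Genes are not independent replicates, and no p-value was attached. The signs were equal for 7039 genes (86.2%), and for all 2078 genes whose changes were at least 0.5 in size with both compounds. The spread of the changes was 1.09 times as wide with ET-770-DR.

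With ET-770, 265 genes were higher than in the DMSO array by 2-fold or more (3.24%) and 480 were lower (5.88%). With ET-770-DR, 505 were higher (6.18%) and 541 lower (6.62%). With RM, 74 were higher (0.906%) and 472 lower (5.78%). With both ecteinascidins 394 genes were lower and 223 higher past 2-fold, and no gene passed 2-fold in opposite directions. A further 86 genes passed downward with ET-770 alone and 147 with ET-770-DR alone. Upward, 42 passed with ET-770 alone and 282 with ET-770-DR alone. In the 282 genes, the median change was 0.79 with ET-770 and 1.12 with the derivative.

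**Figure D1:**
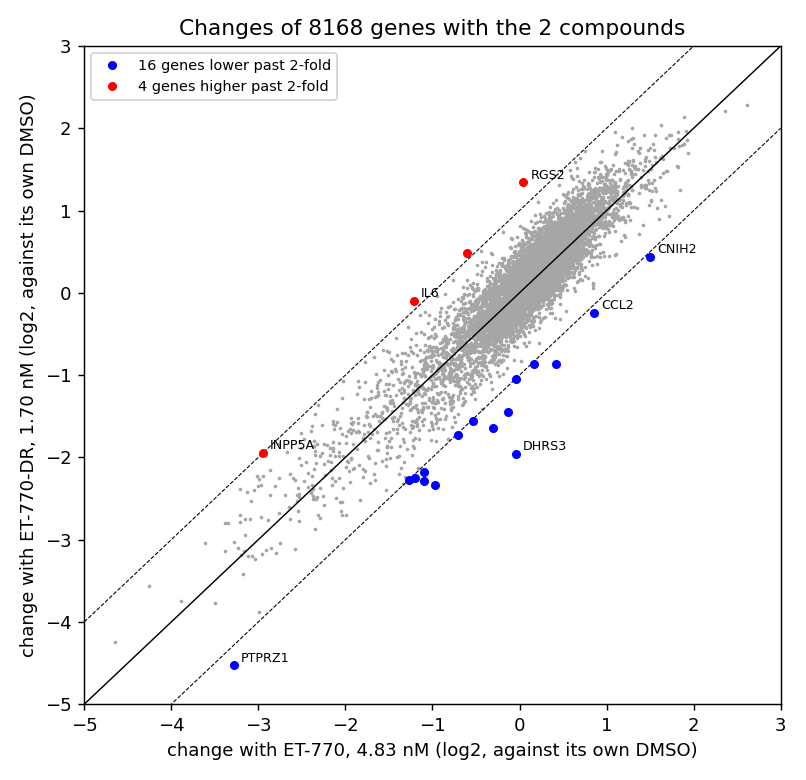
Change of each of 8168 genes with ET-770 (horizontal axis) and with ET-770-DR (vertical axis), both in log2 relative to the DMSO array of that experiment. The solid line marks equal changes and the dashed lines a 2-fold difference. The genes follow the solid line, with 16 genes below the lower dashed line and 4 above the upper one.

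The difference of changes passed 2-fold in 20 genes (0.245%). Of these, 16 were lower with ET-770-DR (0.196%) and 4 higher (0.049%). The split depended on scaling and threshold. With the ET-770-DR changes divided by the ratio of the spreads, 7 were lower and 9 higher, at 1.5-fold 125 were lower and 177 higher, and at a difference of 0.5 on the log2 scale 215 were lower (2.63%) and 338 higher (4.14%). The 16 were DHRS3, ITGB3, ST6GALNAC2, LOX, CST4, PTPRZ1, RHOJ, CCL2, FAM20C, CNIH2, SESN3, PLAU, COL1A2, GXYLT2, IGFBP3 and NRP2. The 4 were RGS2, IL6, SLC16A9 and INPP5A. COL1A2, GXYLT2, IGFBP3 and NRP2 rank below the 12 lowest, and GXYLT2 and IGFBP3 are named because the count was known. At the limit, INPP5A (1.00) and NRP2 (-1.01) lay just inside, and TOX (1.00) and LMO3 (-0.99) just outside.

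**Figure D2:**
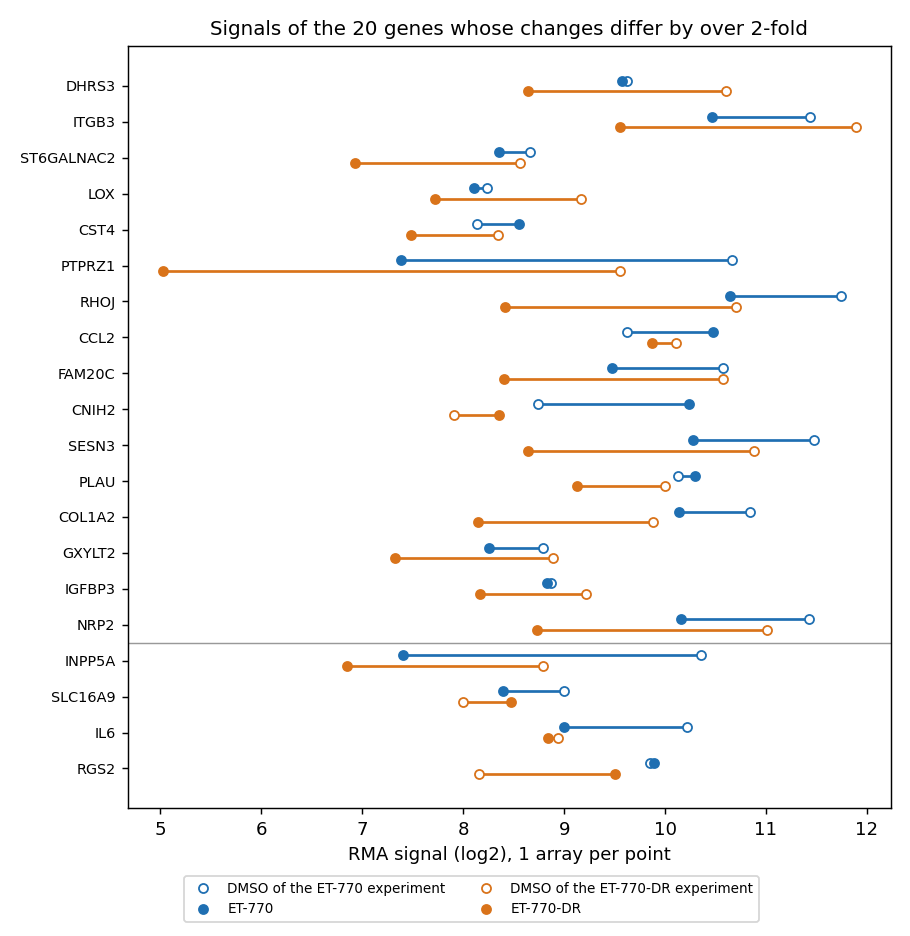
RMA signal (log2) of the 20 genes past a 2-fold difference of changes, 1 array per point. Open circles are DMSO arrays, filled circles compound arrays, and a line joins the arrays of one experiment. Above the grey line are the 16 genes with a lower change with ET-770-DR, from DHRS3 (-1.91) to NRP2 (-1.01), and below it the 4 with a higher change.

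The integrin beta 3 chain ITGB3, a receptor for matrix proteins, had signals of 11.43 in DMSO and 10.46 with ET-770, and of 11.89 in DMSO and 9.55 with ET-770-DR. Its change was -0.97 with ET-770, -2.34 with the derivative and -1.34 with RM. LOX, lysyl oxidase, which crosslinks collagen, went from 8.23 to 8.10 with ET-770 and from 9.17 to 7.72 with ET-770-DR. The difference of changes of LOX was -1.32, and its vehicle arrays already stood apart by more than its compound arrays did. COL1A2, a chain of type I collagen, went from 10.84 to 10.14 with ET-770 and from 9.88 to 8.14 with ET-770-DR. PLAU, the urokinase that activates plasminogen, went from 10.13 to 10.30 with ET-770 and from 10.00 to 9.13 with ET-770-DR. IGFBP3, a carrier of insulin-like growth factors, showed 8.87 and 8.83 in the ET-770 experiment and 9.22 and 8.17 in the ET-770-DR experiment.

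PTPRZ1, a tyrosine phosphatase receptor found on glia, was far lower with each compound. Its signal was 10.66 in DMSO and 7.38 with ET-770, and 9.55 in DMSO and 5.03 with ET-770-DR. The changes were -3.28, -4.53 and, with RM, -2.66. The signal of 5.03 lay below the median of its array (6.65) and below the median of the markers of other cell types there (5.53), so the size of the ET-770-DR change is not well measured. NRP2, a co-receptor for semaphorins and VEGF, went from 11.43 to 10.16 with ET-770 and from 11.01 to 8.73 with ET-770-DR. NRP2 was read by 2 probes, whose differences of changes were -0.88 and -1.14. In both genes the compound arrays lay below the vehicle arrays, and the ET-770-DR array was the lowest of the 4.

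The largest difference of all was that of DHRS3, a reductase of retinal, at -1.91, which is 3.76-fold. Its signal was 9.62 in DMSO and 9.58 with ET-770, but 10.60 in DMSO and 8.65 with ET-770-DR. With RM the change was -0.94, between the other two. SESN3, a stress-responsive sestrin, went from 11.47 to 10.28 and from 10.89 to 8.64. FAM20C, a kinase of the secretory pathway, went from 10.57 to 9.47 and from 10.58 to 8.41. ST6GALNAC2, a sialyltransferase, went from 8.67 to 8.36 and from 8.57 to 6.92, and GXYLT2, a xylosyltransferase, from 8.79 to 8.25 and from 8.88 to 7.33. SESN3, FAM20C, ST6GALNAC2 and GXYLT2 were lower with both compounds, and the change was larger in size in the ET-770-DR pair.

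CNIH2, an auxiliary protein of AMPA receptors, differed from the rest of the 16 in being higher with both compounds. It went from 8.74 to 10.24 with ET-770 and from 7.91 to 8.35 with ET-770-DR. Of the 16 genes, 12 were lower than in DMSO with ET-770, 15 with the derivative and 14 with RM. The RM change lay nearer to the ET-770 change in 10 of them and nearer to the ET-770-DR change in 6.

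Opposite directions were seen in 4 of the 20 genes. CST4, a cystatin with close relatives in the genome that may share its probes, had changes of 0.42 with ET-770 and -0.86 with the derivative. For PLAU they were 0.17 and -0.86, for the chemokine CCL2 0.86 and -0.24, and for the monocarboxylate transporter SLC16A9 -0.60 and 0.48. At least 1 of the changes was under 0.5 in size in each of the 4.

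RGS2, which shortens signaling of G protein-coupled receptors, had the highest difference of changes, 1.30. Its signals were 9.85 and 9.90 in the parent experiment and 8.16 and 9.50 in the derivative experiment, so the DMSO array of the ET-770-DR experiment was the low one. With RM, RGS2 went from 7.90 to 8.94, a change of 1.04. INPP5A, a phosphatase of inositol phosphates, was lower with both compounds. It went from 10.35 to 7.41 with ET-770 and from 8.79 to 6.85 with ET-770-DR, with changes of -1.94 for ET-770-DR and -1.93 for RM. TOX, a nuclear protein of the HMG-box type, had a like pattern, from 10.30 to 7.33 and from 8.95 to 6.98. For both genes the vehicle arrays were further apart than the compound arrays.

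Among the rest of the 12 highest differences, 3 genes had negative changes with both compounds and 3 had positive ones. LRRC49 (-2.03 and -1.07 with ET-770 and ET-770-DR), DTWD2, a tRNA-modifying enzyme (-2.31 and -1.36), and the engulfment adaptor GULP1 (-2.78 and -1.83) were the 3 with negative changes. NAA16, a subunit of a protein acetyltransferase (0.76 and 1.72), CCDC59 (0.64 and 1.59) and the zinc finger gene ZNF485 (0.70 and 1.64) were the 3 with positive ones. EFL1, a GTPase that acts in the maturation of the large ribosomal subunit, had changes of opposite sign, -0.44 and 0.51.

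A difference of changes can arise in the vehicle arrays as well as in the compound arrays, so the 4 arrays were brought to one distribution by quantile normalization and each pair was compared. Over all genes the standard deviation was 0.34 between the vehicle arrays, 0.40 between the compound arrays and 0.26 for the difference of changes. Of the 16 lower genes, the vehicle arrays were further apart in 9 and the compound arrays in 7. For DHRS3 the gap was 1.66 between the vehicle arrays (ET-770-DR experiment minus ET-770 experiment) and -0.27 between the compound arrays. For ITGB3 it was 1.04 and -0.29, for CCL2 1.17 and 0.01, and for IGFBP3 1.07 and -0.01. Thus, after this normalization, the compound arrays of CCL2 and IGFBP3 were level, and the whole difference lay between the vehicle arrays. In contrast, the gap for PTPRZ1 was -0.42 between the vehicle arrays and -1.74 between the compound arrays, for RHOJ -0.42 and -1.60, for CNIH2 -0.15 and -1.24 and for COL1A2 -0.29 and -1.32. Of the 4 higher genes, the vehicle arrays were further apart in 3, and SLC16A9 alone had the larger gap between the compound arrays (-0.31 and 0.70). These placements depended on the normalization, and the genes were counted after it alone. In the deposited values, where the ET-770-DR experiment was dimmer, the gaps were 0.49 and -0.61 for CCL2 and 0.35 and -0.66 for IGFBP3. For ITGB3 they were 0.46 and -0.91, so there the compound arrays of these 3 genes were the further apart.

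**Figure D3:**
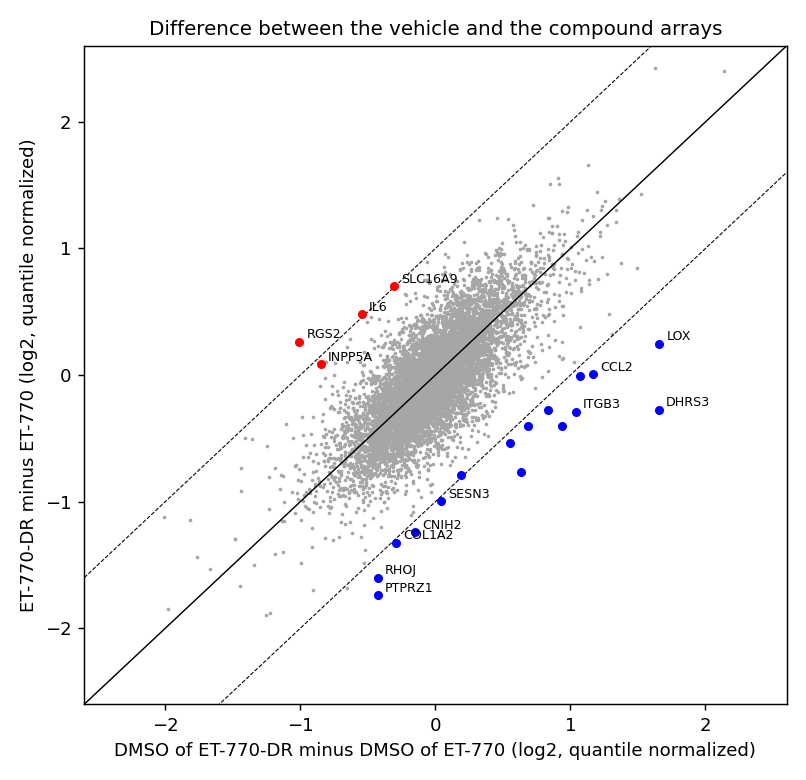
Difference between the DMSO arrays (horizontal axis) and between the compound arrays (vertical axis) of the 2 experiments, ET-770-DR minus ET-770, in log2 after quantile normalization over the 4 arrays, for 8168 genes. Blue points are the 16 genes lower and red points the 4 genes higher past 2-fold in the deposited values, and dashed lines mark a 2-fold difference of changes. DHRS3, LOX and CCL2 lie to the right, where the vehicle arrays differ, and PTPRZ1 and RHOJ lie low, where the compound arrays differ.

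The level in the ET-770-DR array was also tested against that in the ET-770 array with limma, where the 3 DMSO arrays gave the spread. This tests compound and experiment together and not the difference of changes. The 3 DMSO arrays came from separate experiments, so their spread includes differences between experiments. A lack of calls therefore does not show that the levels were equal. No gene of 18417 passed an adjusted p of 0.05 (0%), and 112 had an unadjusted p under 0.05. For PTPRZ1 the level difference was -1.78 (SE 0.43) with an adjusted p of 1 by limma. Without the 2 arrays of the RM experiment, ARB2BP, CCDC59 and DAAM1 were higher and LYRM9, PTPRZ1 and RNU5A-1 lower. All but CCDC59 and PTPRZ1 lay below the minimum signal. The level difference was 2.44 for CCDC59 and -1.78 for PTPRZ1. That fit draws its spread from the 2 remaining DMSO arrays alone, which came from separate experiments, so its calls rest on little. For CCDC59 these DMSO arrays already stood 1.62 apart after quantile normalization over the 4 arrays (ET-770-DR experiment minus ET-770 experiment). The compound arrays stood 2.43 apart.

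Lists of genes of known function were then described by the median of each compound's change, with no test. The median difference of changes over all 8168 genes was 0.05, and 57.6% of genes lay above 0. After quantile normalization the median over all genes was -0.01. In 29 lists with 10 or more members, the median difference ranged from -0.32 for collagens and matrix proteins to 0.34 for ribosome biogenesis.

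**Figure D4:**
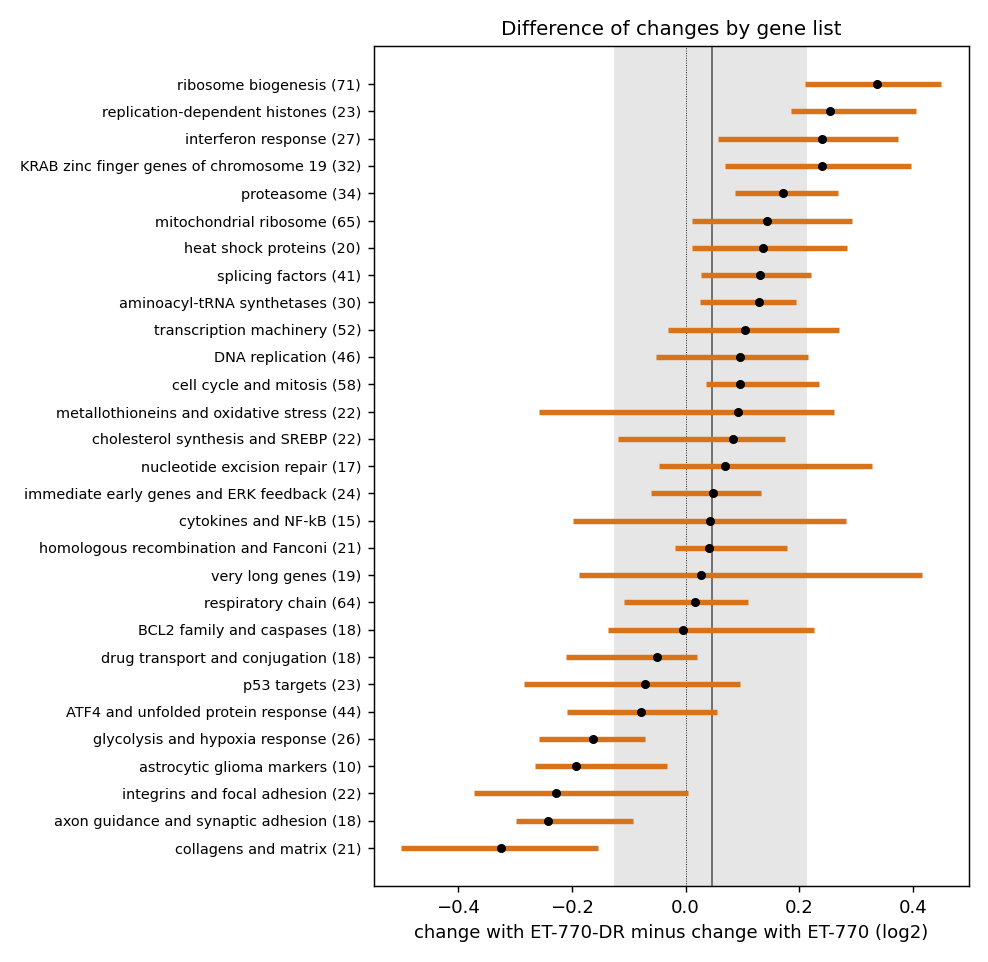
Median (point) and interquartile range (bar) of the difference of changes, ET-770-DR minus ET-770 in log2, for gene lists with 10 or more members, with the number of members in brackets. The vertical line and the grey band are the median and the interquartile range of all 8168 genes. Ribosome biogenesis lies highest at 0.34 and collagens and matrix lowest at -0.32.

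Ribosome biogenesis genes encode RNA polymerase I and the nucleolar factors that process and assemble ribosomal RNA. Of 71 members, 66 had a higher change with ET-770-DR and 5 a lower one. The median change was 0.52 with ET-770, 0.86 with the derivative and 0.23 with RM. Past 2-fold, 6 members were higher with ET-770 and 23 with the derivative, and 2 were lower with RM. The shares over all genes were 3.24%, 6.18% and 5.78% in the same order. None of the 71 passed a 2-fold difference of changes, and 10 had a difference of at least 0.5, which 338 of all genes did (4.14%). After quantile normalization the median difference of the list was 0.26.

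UTP20, a scaffold of the small subunit processome, had the largest difference of the list at 0.90. Its signal went from 8.88 to 7.94 with ET-770 and from 8.11 to 8.06 with ET-770-DR, and from 8.82 to 7.71 with RM. PNO1, which acts in the maturation of the small subunit, went from 9.39 to 9.63 and from 8.92 to 9.88. UTP15, another processome factor, went from 9.42 to 9.81 and from 8.61 to 9.71. For UTP20 the gap after quantile normalization (ET-770-DR experiment minus ET-770 experiment) was -0.08 between the vehicle arrays and 0.75 between the compound arrays, for PNO1 0.26 and 0.89, and for UTP15 -0.09 and 0.55. In all 3 genes the compound arrays were the further apart. The mitochondrial ribosome, with 65 members, had a median difference of 0.14 (0.07 after quantile normalization), and 50 members lay above 0. MRPL15, a protein of its large subunit, had a change of 0.50 with ET-770 and of 1.20 with the derivative.

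The E-box, to which MYC binds, is a textbook element of ribosome biogenesis promoters. Its palindromic letters CACGTG, equal on both strands, were searched in the 250 bases before the first listed start of each gene (RefSeq, GRCh38.p14). They were present in 8 of the 59 members with a promoter in the table (13.6%), in 9.66% of the 6772 promoters of genes in the set and in 6.49% of all 27305 promoters. The promoters of 3 of these 8 members are shown because the list had the highest median difference, with the E-box in capitals. UTP20 lies at chr12:101279855-101280104 on the plus strand, NOL8 at chr9:92325351-92325600 on the minus strand and UTP14A at chrX:129905914-129906163 on the plus strand, and each ends at the base before the start.
UTP20: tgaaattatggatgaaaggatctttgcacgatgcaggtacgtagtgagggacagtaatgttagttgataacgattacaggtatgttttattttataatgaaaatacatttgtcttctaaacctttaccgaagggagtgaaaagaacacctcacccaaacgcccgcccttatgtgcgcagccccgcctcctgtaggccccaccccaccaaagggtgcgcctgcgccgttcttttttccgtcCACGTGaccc
NOL8: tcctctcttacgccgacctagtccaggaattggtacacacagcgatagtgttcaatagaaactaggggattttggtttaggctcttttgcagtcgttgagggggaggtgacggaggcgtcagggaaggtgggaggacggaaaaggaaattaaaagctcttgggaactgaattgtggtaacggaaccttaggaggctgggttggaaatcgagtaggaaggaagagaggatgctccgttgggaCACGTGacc
UTP14A: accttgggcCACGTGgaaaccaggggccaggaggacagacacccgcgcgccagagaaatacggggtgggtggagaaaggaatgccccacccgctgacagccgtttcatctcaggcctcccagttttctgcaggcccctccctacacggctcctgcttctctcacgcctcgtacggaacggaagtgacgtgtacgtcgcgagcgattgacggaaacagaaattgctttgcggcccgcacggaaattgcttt
The differences of changes were 0.90 for UTP20, 0.50 for NOL8 and 0.49 for UTP14A. All 3 lay above the upper quartile of the list (0.45), so they do not stand for the 8 members with an E-box. A relation between the element and the difference of changes was not tested. A match is a description of the letters and not of binding.

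Matrix genes lay at the other end. Of 21 collagens and other matrix proteins, 19 had a lower change with ET-770-DR and 2 a higher one. The median change was -0.23 with ET-770, -0.53 with the derivative and -0.36 with RM. LOX and COL1A2 passed a 2-fold difference of changes, which 16 of all genes did downward (0.196%). A difference of -0.5 or below was seen in 6 members and in 215 of all genes (2.63%). Past 2-fold, 7 members were lower than DMSO with ET-770-DR and 2 with ET-770, beside 6.62% and 5.88% of all genes. CCN2, a matricellular growth factor, went from 11.29 to 11.75 with ET-770 and from 11.41 to 11.09 with ET-770-DR. For CCN2 the gap after quantile normalization (ET-770-DR experiment minus ET-770 experiment) was 0.74 between the vehicle arrays and -0.10 between the compound arrays. After quantile normalization the median difference of the list was -0.39.

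Integrins and focal adhesion proteins, with 22 members, had a median difference of -0.23, and 16 lay below 0. ITGB8, which binds latent TGF-beta, had changes of -1.23 and -1.97 with ET-770 and ET-770-DR. FYN, a kinase of the SRC family, ran the other way, with -2.67 and -1.93. In the 18 axon guidance and synaptic adhesion genes the median change was large with every compound. It was -1.33 with ET-770, -1.68 with the derivative and -1.25 with RM. With each, 11 members were lower past 2-fold (5.88%, 6.62% and 5.78% of all genes in the same order). Their median difference was -0.24, and 15 lay below 0. PTPRZ1 and NRP2 had the largest differences of this list, while TENM2, a teneurin, had 0.69, with changes of -4.25 and -3.57. Its signals of 6.46 with ET-770 and 5.78 with the derivative lay below the medians of those arrays, and its gap after quantile normalization was -0.67 between the vehicle arrays and -0.05 between the compound arrays.

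Of 10 astrocytic markers, 8 had a lower change with ET-770-DR, at a median difference of -0.19. SOX2, a factor of neural stem cells, went from 12.43 to 11.91 with ET-770 and from 11.63 to 10.47 with ET-770-DR, and S100B from 10.13 to 9.40 and from 8.31 to 7.30. For S100B the gap after quantile normalization was -1.12 between the vehicle arrays and -1.40 between the compound arrays. CD68 and KRT18, the markers of other cell types above the minimum, had differences of 0.13 and 0.04, and that of KRT18 turned to -0.03 after quantile normalization.

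The 32 zinc finger genes of chromosome 19, which encode KRAB repressors, had positive medians with each compound. The median change was 0.89 with ET-770, 1.13 with the derivative and 0.56 with RM. Past 2-fold, 14 members were higher with ET-770, 20 with the derivative and 3 with RM (3.24%, 6.18% and 0.906% of all genes). The median difference was 0.24, and 29 of the 32 lay above 0. ZNF845 went from 8.61 to 9.71 with ET-770 and from 7.85 to 9.81 with ET-770-DR. These genes are similar in sequence, and probes may be shared between them.

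Of 23 replication-dependent histone genes, 21 had a higher change with ET-770-DR, at a median difference of 0.25. Their median change was -0.16 with ET-770, 0.10 with the derivative and -0.10 with RM, and no member passed 2-fold with any compound. H2BC3 went from 9.05 to 8.72 and from 7.08 to 7.56, and both signals of the ET-770-DR experiment lay below 8. For H2BC3 the gap after quantile normalization (ET-770-DR experiment minus ET-770 experiment) was -1.36 between the vehicle arrays and -0.50 between the compound arrays. Histone genes are also near copies of each other. The proteasome, with 34 members, had a median difference of 0.17 (0.09 after quantile normalization), and 31 lay above 0, although no subunit passed 2-fold with either compound. PSMA3, a subunit of the core particle, had changes of 0.27 and 0.80. Of 27 interferon-induced genes, 20 lay above 0 at a median difference of 0.24. IFIT5 had changes of 0.10 and 0.67, whereas OASL had 0.78 and 0.18. After quantile normalization the gap of IFIT5 was -0.63 between the vehicle arrays and -0.17 between the compound arrays. That of OASL was -0.13 and -0.71.

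Cytokine genes differed among themselves. The ligands IL6 and CCL2 had differences of 1.12 and -1.10, and CXCL2 had -0.71. IL6, an inflammatory cytokine, went from 10.22 to 9.0 with ET-770, from 8.94 to 8.84 with ET-770-DR and from 9.78 to 7.24 with RM. CCL2, which attracts monocytes, went from 9.62 to 10.48, from 10.11 to 9.87 and from 9.11 to 8.04 in the same order. CXCL2, which attracts neutrophils, went from 7.44 to 9.04, from 7.36 to 8.26 and from 7.09 to 7.12. Over the 15 members of the list the median difference was 0.04, 0.02 after quantile normalization and -0.03 when the ET-770-DR changes were divided by the ratio of the spreads.

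The promoters of IL6 and CXCL2 are shown because these ligands differed in opposite directions. CCL2, whose difference was larger in size than that of CXCL2, had no matched promoter to show. Capitals mark matches to an NF-kB element, read as GGG and CC with any 5 bases between them, searched on both strands, and matches may overlap. IL6 lies at chr7:22726950-22727199 on the plus strand and CXCL2 at chr4:74099196-74099445 on the minus strand (GRCh38.p14).
IL6: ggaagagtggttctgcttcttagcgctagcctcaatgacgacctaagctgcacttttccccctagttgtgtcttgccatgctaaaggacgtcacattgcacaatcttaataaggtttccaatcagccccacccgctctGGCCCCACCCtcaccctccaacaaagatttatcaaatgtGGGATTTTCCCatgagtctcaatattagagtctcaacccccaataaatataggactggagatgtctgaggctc
CXCL2: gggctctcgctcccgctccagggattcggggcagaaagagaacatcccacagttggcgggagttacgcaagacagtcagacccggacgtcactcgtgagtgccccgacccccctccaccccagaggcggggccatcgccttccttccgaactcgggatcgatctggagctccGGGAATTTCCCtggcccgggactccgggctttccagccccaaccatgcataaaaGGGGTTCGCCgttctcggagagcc
Each holds 3 matches, some of them overlapping. It was present in 11 of 12 promoters of the list (91.7%), in 71.0% of the promoters of genes in the set and in 53.7% of all promoters, so it is common.

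In 23 targets of p53 the median change was 0.70 with ET-770, 0.52 with the derivative and 0.41 with RM. Past 2-fold, 7 members were higher with each ecteinascidin (3.24% of all genes with ET-770 and 6.18% with the derivative). The median difference was -0.07, with 11 above 0 and 12 below, and -0.16 after quantile normalization. Among the 15 targets that act in arrest and repair, the median change was 0.70 with ET-770 and 0.32 with the derivative. The median difference of changes per gene was smaller there, -0.09, and 5 members were higher past 2-fold with ET-770 and 6 with the derivative. In the 8 targets that act in cell death the median changes were 0.63 and 0.77, and the median difference was 0.05. GDF15, a secreted stress factor, went from 10.36 to 12.08 with ET-770 and from 10.73 to 11.66 with ET-770-DR. PLK2, a kinase induced by p53, had changes of 0.84 and 0.12. For GDF15 the gap after quantile normalization (ET-770-DR experiment minus ET-770 experiment) was 1.02 between the vehicle arrays and 0.10 between the compound arrays. For PLK2 it was 1.29 and 0.49, so the level of PLK2 was then higher in the ET-770-DR array than in the ET-770 array. In 17 nucleotide excision repair genes the median difference was 0.07, and MNAT1, a subunit of the CDK-activating kinase, had changes of -1.87 and -1.23. In 21 homologous recombination and Fanconi genes it was 0.04 as deposited and -2.2e-05 after quantile normalization.

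DNA replication genes had a median change of 0.62 with ET-770, 0.66 with the derivative and 0.13 with RM over 46 members. Past 2-fold, 11 were higher with ET-770 and 13 with the derivative (3.24% and 6.18% of all genes). Their median difference was 0.10 and turned to -0.02 after quantile normalization. PRIM2, a subunit of primase, had the largest, with changes of -1.01 and -0.44. Of 58 cell cycle and mitosis genes, 44 lay above 0 at a median difference of 0.10 (0.03 after quantile normalization), and the cyclin-dependent kinase CDK6 had changes of -2.14 and -1.56. In 18 genes of the BCL2 family and the caspases, 9 lay on each side of 0. BIRC6, an inhibitor of apoptosis, had the largest difference of these, 0.76, with changes of -2.04 and -1.28.

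The ATF4 and unfolded protein response list, with 44 members, had a median difference of -0.08 (-0.15 after quantile normalization), and 30 lay below 0. PCK2, a mitochondrial enzyme and ATF4 target, had changes of 1.20 with ET-770, 0.70 with the derivative and 0.23 with RM. VLDLR, a lipoprotein receptor, had -0.74, -1.57 and -0.72, while CHAC2, which degrades glutathione, had 1.30, 2.00 and 0.42. Of 26 glycolysis and hypoxia genes, 23 lay below 0 at a median difference of -0.16. NDRG1, a hypoxia-responsive gene, had changes of -1.10 and -1.53. All 5 metallothioneins, which bind zinc and share much of their sequence, lay below 0, with a median change of -0.06 with ET-770 and -0.44 with the derivative. MT1F had changes of -0.06 and -0.82. The 17 NRF2 targets of the same list of 22 went the other way, with 13 above 0 at a median difference of 0.16. The median difference of the whole list was 0.09.

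In 24 immediate early and ERK feedback genes the median difference was 0.05 (-0.01 after quantile normalization), and none passed a 2-fold difference. SPRY4, a feedback inhibitor of the ERK pathway, had changes of 0.60 with ET-770 and 1.39 with the derivative. The phosphatase DUSP6 had -0.61 and 0.15, and KLF10, a factor induced by TGF-beta, had 0.72 and 0.15. After quantile normalization the compound arrays of SPRY4 and DUSP6 were level (-0.02 and -0.001). Their vehicle arrays stood apart by -0.82 and -0.75 (ET-770-DR experiment minus ET-770 experiment). For KLF10 the gap was 1.49 between the vehicle arrays and 0.85 between the compound arrays. Nuclear-encoded respiratory chain subunits had a median difference of 0.02 over 64 members, which turned to -0.05 after quantile normalization, and no member passed 2-fold with any compound. Exporters and conjugating enzymes of drugs had a median difference of -0.05 over 18 members (-0.11 after quantile normalization), and the largest in size was that of the exporter ABCC3 at -0.43. In the 20 heat shock proteins, the 41 splicing factors, the 52 subunits of the transcription machinery, the 30 aminoacyl-tRNA synthetases and the 22 genes of cholesterol synthesis, the medians lay between 0.08 and 0.14, and between 0.02 and 0.08 after quantile normalization.

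Very long genes had the lowest median change of all lists with each compound. Of 19 members, 15 were lower past 2-fold with ET-770, 16 with the derivative and 15 with RM (5.88%, 6.62% and 5.78% of all genes). The median changes of the list were -2.76, -2.49 and -2.06. The median difference was 0.03 and turned to -0.05 after quantile normalization, but the members spread widely. FNDC3B, a membrane protein, had changes of -3.21 and -2.38, whereas FTO, an RNA demethylase, had -1.83 and -2.52. Thus 4 members had a difference of at least 0.5 and 2 of -0.5 or below (4.14% and 2.63% of all genes).

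The RM pair shares no array with the other pairs, and it was used to sort the genes. In the 62 genes with an RM change of -2 or below, the median change was -2.79 with ET-770 and -2.68 with the derivative. In the 410 genes between -2 and -1 it was -1.30 and -1.36. In the 74 genes with an RM change above 1 it was 1.03 and 1.15. The median difference of changes was between 0.02 and 0.14 in every class. Over all 8168 genes the difference of changes correlated with the RM change at a Pearson coefficient of 0.04.

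**Figure D5:**
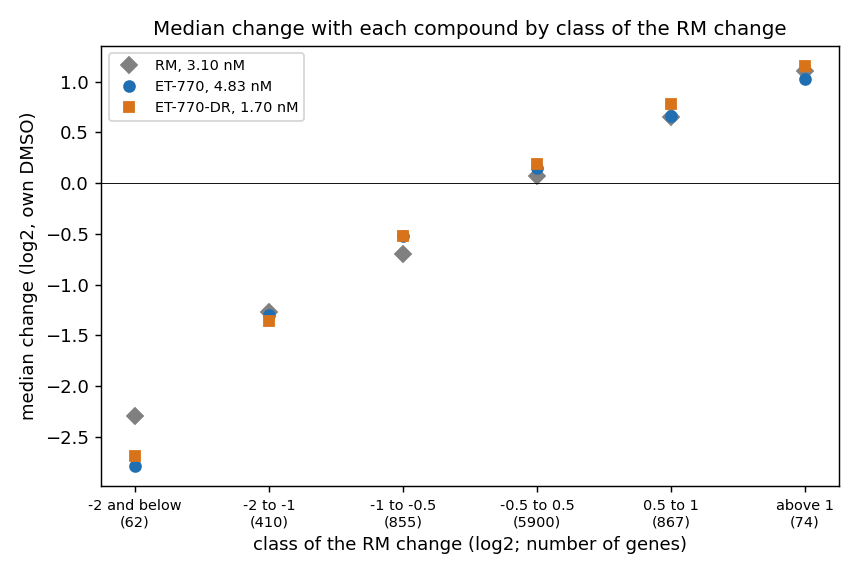
Median log2 change, each against its own DMSO array, with RM (diamonds), ET-770 (circles) and ET-770-DR (squares) in classes of the RM change, with the number of genes in brackets. The values of ET-770 and ET-770-DR lie close in each class, at -2.79 and -2.68 in the lowest and at 1.03 and 1.15 in the highest.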

How the data were processed

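RMA signals on a log2 scale were computed and deposited by the authors from Human Gene 1.0 ST arrays in Affymetrix Expression Console (version not given in the sources used here). Whether the 3 experiments were normalized together was not stated. Of 33297 probes, 19460 that the platform annotation pairs with 1 gene symbol were averaged per gene on the log2 scale, 1754 that have several and 12083 that have no symbol were left out, and 18417 genes resulted, of which 18389 had their Entrez ID in the GRCh38.p14 gene table. From each compound array the DMSO array of its experiment was subtracted, with no further normalization. In 24 genes both probes held identical values. In the 191 other genes with 2 probes at or above the minimum, the standard deviation between probes of the difference of changes was 0.15. The genes, the 31 lists and the rules were chosen with earlier results of these data known. Named genes are the 12 highest and 12 lowest differences, the 3 largest in size of each list, and the markers, with GXYLT2, IGFBP3 and LMO3 added after their values were seen and NOL8 and UTP14A for their promoters.

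Levels were compared with limma 3.58.1 in R 4.3.3, on values quantile normalized over 6 arrays, with groups DMSO (n = 3), ET-770, ET-770-DR and RM (n = 1 each), eBayes without trend, 2 residual degrees of freedom that the lone arrays are assumed to share, and Benjamini-Hochberg adjustment over 18417 genes. Other steps used Python 3.11.15, numpy 2.4.6 and pandas 2.3.3. The steps were tested on simulated data. The number of arrays limits the precision. Alternatives were the normalization, the control, the minimum, the probes, a rescaling and the threshold. The centring on the median was added after the data were seen.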

Additional observations from a re-analysis of the deposited data

Results flagged for a closer look

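In 4 genes past 2-fold the change had one sign with ET-770 and the opposite sign with ET-770-DR, with 1 array per arm, so that the difference was not tested. The difference of changes was -1.28 for CST4, whose RM change was 0.59. It was -1.10 for CCL2, whose RM change was -1.07. It was -1.03 for PLAU, whose RM change was -1.19. It was 1.08 for SLC16A9, whose RM change was 0.02.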

How the results depend on the processing

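The counts of genes past a 2-fold difference of changes (4 higher and 16 lower with ET-770-DR) stayed within 1.5 times under quantile normalization (3 and 16), with genes of 1 probe (4 and 14), with the brightest probe of each gene (5 and 15) and with the difference centred on its median (3 and 19, chosen after seeing the data). With both compounds set against the average of the 2 DMSO arrays, after quantile normalization, they were 58 and 65. With a minimum of 7 they were 18 and 16, without a minimum 42 and 48, and with 8 or more on each of the 4 arrays 2 and 10. With the ET-770-DR changes divided by the ratio of standard deviations (1.09) they were 9 and 7, so that the excess of lower genes was not kept. At 3-fold they were 0 and 1, and at 1.5-fold 177 and 125. By limma, the count of 0 in each direction stayed at 0 on the deposited values and with eBayes trend (208 and 194 genes at an unadjusted p under 0.05), and was 3 and 3 without the arrays of the RM experiment (1630).

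Quantile normalization turned the sign of the median difference in 5 of 31 lists and the rescaling in 2, all with medians of 0.10 or less. The rescaling moved the median of the very long genes to 0.19. Of 117 named genes, EGFR and KRT18 changed sign under quantile normalization, the probes of KRT18 gave 0.34 and -0.27, and SLC2A1 moved to -0.31. No paired analysis was possible because each arm holds 1 array, and each compound was already compared with the vehicle array of its own experiment.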

Other observations

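A list of genes known to be induced by TGF-beta, a growth factor that raises matrix and adhesion genes, was written after the values above were seen and is given as a description alone. Of 54 measured genes 42 reached the minimum. Their median change was -0.16 with ET-770, -0.50 with the derivative and -0.49 with RM. The difference of changes had a median of -0.29, and 34 members lay below 0 and 8 above. Of all 8168 genes, 3465 lay below 0 and 4702 above. The list shares members, such as LOX, COL1A2, CCN2 and ITGB3, with the matrix and integrin lists above, so it is not independent of them. ITGB3, LOX, PLAU, COL1A2 and IGFBP3 were among the 16 of all 8168 genes (0.196%) that passed 2-fold downward. They were known when the list was written, so their membership is no test of it. PMEPA1, an inhibitor of TGF-beta signaling, lay just short at -0.99, with the proteoglycan VCAN at -0.96. After quantile normalization the median gap was 0.26 between the vehicle arrays (ET-770-DR experiment minus ET-770 experiment) and -0.03 between the compound arrays. Members went both ways in the compound arrays, from -1.32 for COL1A2 to 0.88 for TNC, a matrix glycoprotein.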
